A study of Mus musculus with 4 samples.

Results

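Secretory cells of the colon (goblet, enteroendocrine, tuft and deep crypt secretory cells) arise from crypt progenitors through a small set of transcription factors. This account covers 9 of them, *Atoh1*, *Spdef*, *Gfi1*, *Foxa1*, *Foxa2*, *Foxa3*, *Creb3l1*, *Creb3l4* and *Sox4*, in mouse colonoids with and without butyrate. The genes are a list of names, fixed without a threshold on their values, and each symbol matched 1 row among the 36144 gene rows of the count table. All 9 passed both filters on low values (more than 10 counts in at least 2 libraries, and a mean normalised count of at least 50), which 11650 genes passed.

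Colonoids are 3-dimensional cultures of colonic epithelium. They came from a male mouse aged 24 weeks, were used at passage 3 and grew in medium with EGF, Noggin, R-spondin, the GSK3 inhibitor CHIR99021 and the ROCK inhibitor Y-27632. The 4 conditions were untreated at day 2, 2 mM sodium butyrate for 48 h (day 2), untreated at day 3, and 2 mM sodium butyrate for 72 h (day 3), with 1 poly-A RNA-seq library each. Days 2 and 3 are written as 48 h and 72 h below. Genotype is given as WT in the sample labels and as Hes1-GFP in the study's text, and all cultures descend from 1 mouse according to that text. Culture, treatment and library cannot be told apart, since no condition was repeated.

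Libraries held between 20790225 and 24207840 estimated counts. The 9 colonic epithelium markers were all well expressed (summed normalised count between 148131 and 164901). None of the 6 immune, 3 endothelial or 4 neural markers and 1 of the 6 mesenchymal markers passed the filters, with sums of no more than 121 in any library and *Sox10*, *S100b* and *Col3a1* at 0 counts in all 4. The summed goblet markers were 116099 (untreated, 48 h), 93549 (butyrate, 48 h), 168952 (untreated, 72 h) and 91873 (butyrate, 72 h). *Muc2* led these sums, and at 48 h 3 of the 8 goblet markers were higher with butyrate and 5 lower, against 1 and 7 at 72 h. In the same order of libraries, the tuft sums were 484, 389, 518 and 174, and the enteroendocrine sums 8188, 9324, 10171 and 5681. *Chgb* set the higher enteroendocrine sum with butyrate at 48 h (4142 and 5481), while the other 6 markers together stood at 4046 and 3843. Taken singly, 4 of the 7 enteroendocrine markers were higher with butyrate and 3 lower at 48 h, against 0 and 7 at 72 h. Markers of other epithelial cells differed as well, with colonocyte sums of 88431, 95053, 119078 and 69156, stem cell sums of 18188, 13275, 12733 and 20804, and deep crypt secretory or Paneth sums of 18207, 17096, 14006 and 14668. In the last list, 2 of the 4 markers were higher with butyrate and 2 lower at 48 h, against 3 and 1 at 72 h. The higher ones at 48 h were *Lyz1* (11446 and 12289) and *Reg4* (1101 and 1459 counts before normalisation). Without *Lyz1*, the other 3 together summed to 6761 and 4807. The colonocyte sum at 48 h hides opposite shifts, since *Ceacam1* went from 61945 to 38676 with butyrate and the other 5 markers together from 26487 to 56378, each of them higher. At 72 h all 6 were lower. The stem cell sum was higher with butyrate at 72 h, as *Sox4* was, and the colonocyte sum was lower there, as the goblet, tuft and enteroendocrine sums were. The part of these shifts in the values of the transcription factors was not tested. In whole cultures, fewer cells of a type and less RNA per cell cannot be told apart.

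In the crypt, Notch signalling keeps progenitors absorptive by way of *Hes1*, a repressor of *Atoh1*. Cells that escape this repression express *Atoh1*, which opens the secretory programme. Factors acting after it then steer cells towards goblet, enteroendocrine or other secretory fates and build their secretory apparatus.

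The promoters of 4 members are shown because these genes carried the main patterns: *Atoh1* differed most over time, *Creb3l4* differed most with butyrate, *Spdef* was lower with butyrate at both times and *Sox4* was higher with butyrate at 72 h. Each stretch runs 5′ to 3′ on the gene's strand, from 250 bases before the RefSeq start site through 30 bases from that site on (GRCm38.p6). Capitals mark matches, on either strand, to an N-box (CACNAG, bound by Hes repressors), an E-box (CAGCTG, bound by Atoh1 and other basic helix-loop-helix factors), a cAMP response element core (TGACGT) or a CCAAT box (CCAAT).

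Atoh1, chr6:64728875-64729154, plus strand: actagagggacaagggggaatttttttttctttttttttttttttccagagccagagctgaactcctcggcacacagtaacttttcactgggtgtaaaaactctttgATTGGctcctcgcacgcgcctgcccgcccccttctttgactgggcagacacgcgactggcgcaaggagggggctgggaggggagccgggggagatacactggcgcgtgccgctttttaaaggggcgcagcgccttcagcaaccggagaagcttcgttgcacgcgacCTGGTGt
Spdef, chr17:27728922-27729201, minus strand: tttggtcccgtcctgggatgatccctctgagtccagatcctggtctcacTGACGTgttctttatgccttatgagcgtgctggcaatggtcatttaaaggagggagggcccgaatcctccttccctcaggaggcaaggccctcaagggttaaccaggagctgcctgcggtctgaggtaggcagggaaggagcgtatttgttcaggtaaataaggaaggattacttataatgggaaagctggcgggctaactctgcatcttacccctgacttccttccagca
Creb3l4, chr3:90243483-90243762, minus strand: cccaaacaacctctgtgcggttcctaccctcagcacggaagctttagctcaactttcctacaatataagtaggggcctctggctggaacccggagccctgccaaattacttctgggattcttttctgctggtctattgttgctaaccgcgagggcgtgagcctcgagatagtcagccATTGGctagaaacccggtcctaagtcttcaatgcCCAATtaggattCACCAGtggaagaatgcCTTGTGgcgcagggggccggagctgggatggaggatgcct
Sox4, chr13:28953670-28953949, minus strand: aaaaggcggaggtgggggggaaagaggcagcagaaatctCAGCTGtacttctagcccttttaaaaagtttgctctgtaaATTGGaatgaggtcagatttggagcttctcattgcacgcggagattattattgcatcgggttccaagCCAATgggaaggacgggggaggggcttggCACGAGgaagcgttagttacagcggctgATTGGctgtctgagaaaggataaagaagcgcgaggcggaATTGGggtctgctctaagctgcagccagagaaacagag

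The *Atoh1* stretch held 1 N-box match, 23 bases past the start site, and 1 CCAAT match 143 bases before it. *Spdef* held a cAMP response element core 201 bases before its start. *Creb3l4* held 2 N-box matches, 27 and 10 bases before the start. It has 3 RefSeq start entries, of which the one nearest the annotated gene start is shown, and the others held 1 N-box match and 0. The stretch of *Sox4* held 1 N-box together with an E-box and 4 CCAAT matches. RefSeq windows of 300 bases were found for 8 of the 9 members, in 13 entries. An N-box was found in 6 of these entries, from 5 members, and in 42.5% of all 32851 such windows. The E-box (*Sox4*; 16.3% of all windows) and the cAMP response element core (*Spdef*; 7.51%) were each found in 1 entry, as was a forkhead match (TGTTTAC; 3.65% of all windows), which lay in the window of *Foxa1*, itself a forkhead gene. CCAAT was found in 7 entries (37.4% of all windows) and TATAAA in 2, those of *Foxa2* and *Foxa3* (13.6%). These matches are letters in the sequence and were not measured as bound.

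Levels of different genes were compared as counts per kb of exon, scaled to the same sum in every library. The order of the 9 genes differed between libraries. In the untreated library at 48 h it read *Sox4* (214), *Creb3l1* (175), *Foxa1* (153), *Spdef* (65.9), *Atoh1* (63.2), *Foxa3* (52.2), *Creb3l4* (39.4), *Foxa2* (16.7) and *Gfi1* (8.32). *Spdef* and *Atoh1* were not separated beyond counting error there (ratio 1.04, interval 0.964 to 1.13), but they were with longest transcripts in place of exon lengths (1.25, 1.16 to 1.35). With butyrate at 48 h, *Atoh1* (77.4) stood above *Spdef* (48.9), and the pairs *Spdef* and *Foxa3* (47.3) and *Foxa2* (23.4) and *Creb3l4* (21.8) were not separated. By longest transcripts *Spdef* stood above *Foxa3* (1.24, 1.14 to 1.35).

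At 72 h, *Atoh1* ranked below *Spdef*, *Foxa3* and *Creb3l4* in both libraries, with levels of 18.3 untreated and 14.4 with butyrate. *Foxa2* (8.83 and 9.67) and *Gfi1* (3.79 and 3.36) closed the order at that time. *Sox4* led with butyrate (224) but stood behind *Creb3l1* (164) and *Foxa1* (151) without it (144). *Creb3l4* (31.4) and *Foxa3* (30.4) were not separated in the untreated library, nor were *Creb3l1* and *Foxa1* by longest transcripts (1.04, 0.997 to 1.08), and every neighbouring pair was separated in the butyrate library. The distance from the highest to the lowest member was 25.7-fold and 35.3-fold at 48 h and 43.2-fold and 66.8-fold at 72 h, untreated and butyrate in that order.

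**Figure D1:**
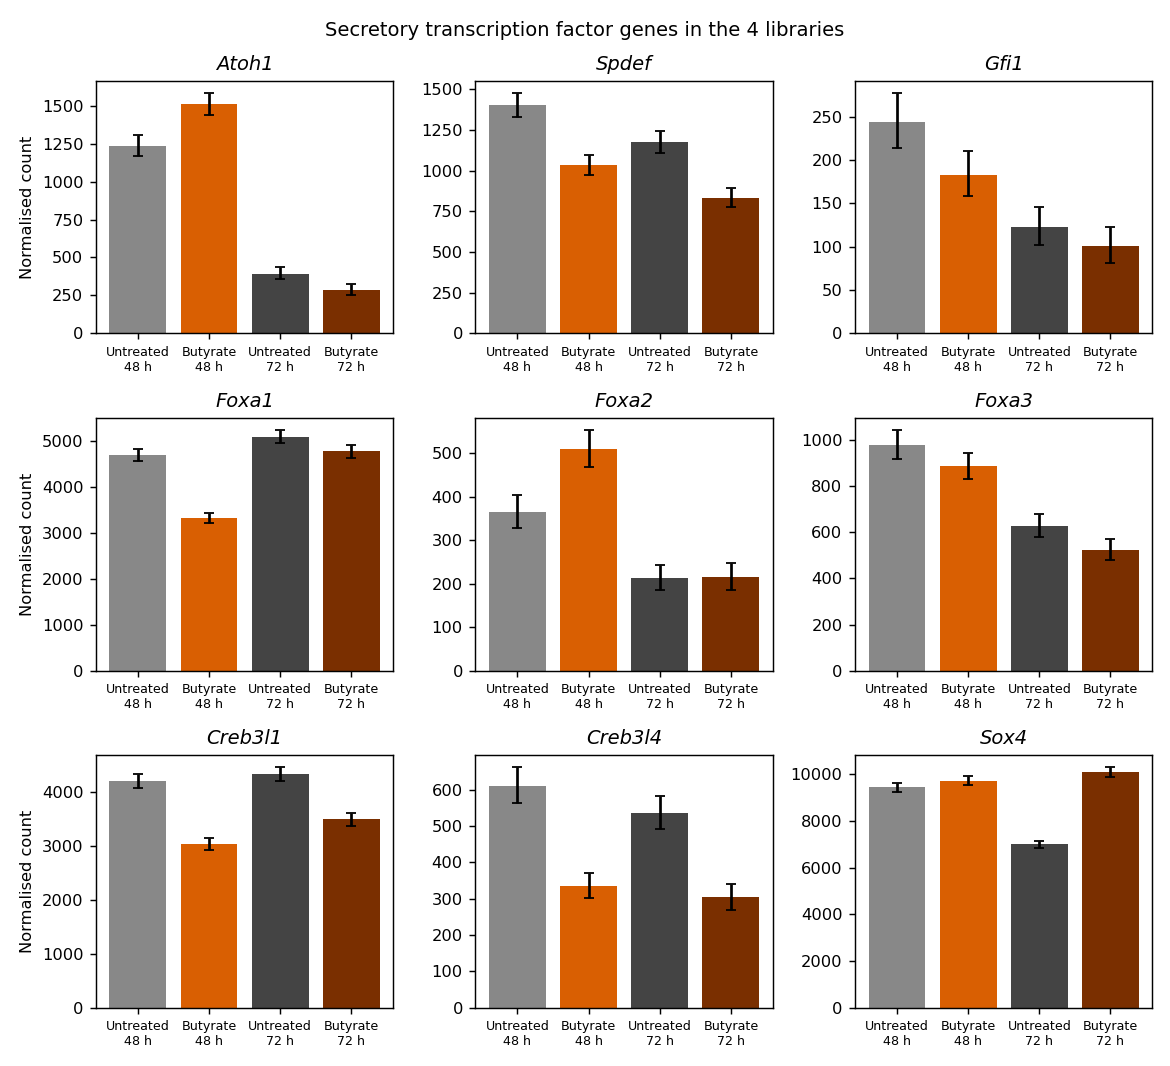
Normalised counts (estimated counts over the library's size factor, linear axes from 0, a scale of its own for each gene) of the 9 members in the 4 libraries. Bars are single libraries and error bars are exact 95% Poisson intervals, which cover counting error only. *Atoh1* stood at 1236 and 1508 at 48 h and at 394 and 286 at 72 h, whereas *Creb3l4* was lower in both butyrate libraries.

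*Atoh1* (ENSMUSG00000073043, chr6:64729125-64731245) encodes the basic helix-loop-helix factor that commits progenitors to the secretory lineage. At 48 h its count was 1209 untreated and 1662 with butyrate, and at 72 h these were 399 and 265. Both 72 h libraries thus lay far below both 48 h libraries, and the order of treated and untreated was opposite at 48 h and 72 h. The log2 change of butyrate over untreated (normalised count plus 1) was at 48 h 0.29 (95% counting interval 0.18 to 0.39) and −0.46 at 72 h (−0.69 to −0.23). The effect at 72 h minus that at 48 h was −0.75 (−0.99 to −0.50).

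From 48 h to 72 h, *Atoh1* stood 3.13-fold lower without butyrate and 5.25-fold lower with it, log2 changes of −1.65 (−1.82 to −1.49) and −2.39 (−2.59 to −2.21). Among the 11650 tested genes, 14 had a change as low or lower without butyrate, and 22 with it, *Atoh1* included. For this gene the distance between time points exceeded that between treatments.

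*Gfi1* (ENSMUSG00000029275, chr5:107716657-107726036), a zinc-finger repressor that favours goblet over enteroendocrine fate, had at 48 h 239 counts untreated and 202 with butyrate, and at 72 h 124 and 93. It was the least abundant member, and both 72 h values lay below both 48 h values. Its change over time was −0.99 (−1.32 to −0.68) without and −0.86 (−1.24 to −0.51) with butyrate. Its change with butyrate was −0.41 (−0.69 to −0.14) at 48 h and −0.28 at 72 h, where the interval from −0.69 to 0.11 included 0. *Gfi1* overlaps the opposite-strand gene *A430072P03Rik* over 880 bases, and the strand setting of the counting is not given in the sources used here.

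*Spdef* (ENSMUSG00000024215, chr17:27714352-27728955), an ETS-domain factor needed for goblet cell maturation, had counts of 1370 and 1141 at 48 h and 1191 and 771 at 72 h. The untreated library was higher at each time. Its log2 change with butyrate was −0.44 (48 h; −0.55 to −0.32) and −0.50 (72 h; −0.63 to −0.37), and the 2 effects were not separated (difference −0.06, −0.23 to 0.11). The difference over time was smaller, at −0.25 (−0.37 to −0.14) untreated and −0.31 (−0.45 to −0.18) with butyrate.

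A ratio of 2 genes within a library does not depend on how libraries are scaled. For each *Atoh1* count the 48 h libraries held 1.13 (untreated) and 0.687 (butyrate) *Spdef* counts, and the 72 h libraries 2.98 and 2.91. The log2 ratio was thus higher at 72 h, by 1.40 (1.20 to 1.60) without butyrate and by 2.08 (1.85 to 2.31) with it. Butyrate minus untreated, it differed by −0.72 (−0.88 to −0.57) at 48 h, and at 72 h the difference of −0.04 (−0.30 to 0.22) was within counting error. Over time, the ratio of every other member to *Atoh1* was also higher at 72 h, by 0.65 (*Gfi1*) to 1.77 (*Foxa1*) without butyrate and by 1.15 (*Foxa2*) to 2.92 (*Foxa1*) with it. This follows from *Atoh1* having the lowest change over time of the 9 members in both arms.

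**Figure D2:**
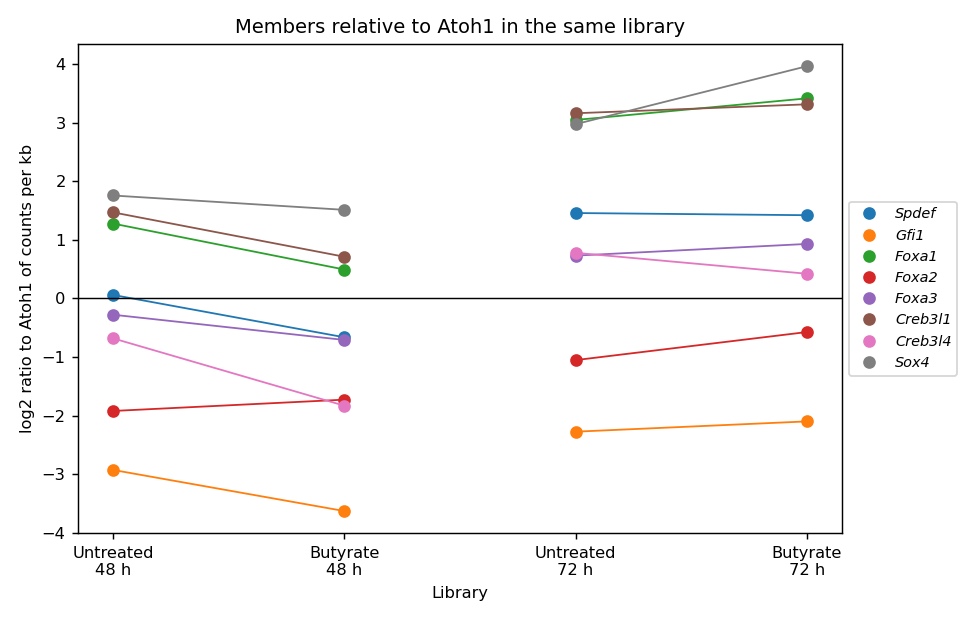
Log2 ratio of each of the other 8 members to *Atoh1* in the same library, from counts per kb of exon, with lines joining untreated and butyrate libraries of the same time. *Spdef* lies near 0 or below at 48 h and above 0 at 72 h, and every gene sits higher at 72 h than at 48 h in the library of the same treatment.

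*Foxa1*, *Foxa2* and *Foxa3* encode forkhead factors that open chromatin in gut epithelium, and the first pair is needed for several enteroendocrine types and for goblet differentiation. The 3 paralogs did not move together. *Foxa1* (ENSMUSG00000035451, chr12:57540628-57546916) had at 48 h 4598 counts untreated and 3671 with butyrate, and at 72 h 5169 and 4432. The butyrate library at 48 h was the lowest. Its change with butyrate was −0.50 (48 h; −0.56 to −0.43) and −0.09 (72 h; −0.15 to −0.03), and the 2 effects differed by 0.40 (0.32 to 0.49). Over time it was higher by 0.12 (0.06 to 0.18) untreated and 0.52 (0.46 to 0.59) with butyrate.

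*Foxa2* (ENSMUSG00000037025, chr2:148042877-148046969) had counts of 357 and 561 at 48 h and 215 and 199 at 72 h. The butyrate library stood highest at 48 h, and the 72 h libraries were not separated by their counting error. Its change with butyrate was 0.48 (48 h; 0.29 to 0.68) and 0.02 (72 h; −0.27 to 0.30), with a difference between the effects of −0.46 (−0.80 to −0.12). Over time its log2 change was −0.78 (−1.03 to −0.53) untreated and −1.24 (−1.48 to −1.01) with butyrate.

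*Foxa3* (ENSMUSG00000040891, chr7:19013284-19023538) had counts of 958 and 977 at 48 h and 636 and 485 at 72 h. Both 72 h libraries lay below both 48 h libraries. Its change over time was −0.64 (−0.79 to −0.50) untreated and −0.76 (−0.92 to −0.60) with butyrate. The changes with butyrate were smaller, at −0.14 (−0.27 to −0.01) at 48 h and −0.26 (−0.44 to −0.09) at 72 h.

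Set per kb of exon, *Foxa1* made up 69.0% (untreated) and 60.6% (butyrate) of the summed level of the 3 genes at 48 h, beside 79.4% and 80.5% at 72 h. *Foxa2* took 7.52% and 13.0% at 48 h and 4.64% and 5.08% at 72 h, and *Foxa3* took the remaining part, from 14.4% to 26.4%. The log2 ratio of *Foxa2* to *Foxa1* was higher with butyrate by 0.98 (0.78 to 1.18) at 48 h, and by 0.11 (−0.17 to 0.39) at 72 h. Its change from 48 h to 72 h was −0.90 (−1.15 to −0.65) without and −1.77 (−2.01 to −1.53) with butyrate.

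*Creb3l1* and *Creb3l4* encode membrane-bound bZIP factors of the endoplasmic reticulum, which are released by proteolysis and, for *Creb3l1*, raise the capacity of the secretory pathway. *Creb3l4* (ENSMUSG00000027938, chr3:90237500-90243512) had at 48 h 597 counts untreated and 370 with butyrate, and at 72 h 542 and 281. Both butyrate libraries lay below both untreated libraries. It stood 1.82-fold lower with butyrate at 48 h (log2 −0.86, −1.05 to −0.67) and 1.76-fold lower at 72 h (−0.82, −1.03 to −0.61). Among tested genes, 2.51% and 2.58% had a change as low or lower at the respective times. Over time its values were −0.19 (−0.36 to −0.02) untreated and −0.15 (−0.37 to 0.08) with butyrate.

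*Creb3l1* (ENSMUSG00000027230, chr2:91982328-92024502) had counts of 4108 and 3341 at 48 h and 4378 and 3232 at 72 h. Here too, both butyrate libraries lay below both untreated libraries. Its change with butyrate was −0.47 (48 h; −0.54 to −0.40) and −0.31 (72 h; −0.37 to −0.24). Over time it was 0.04 (−0.02 to 0.10) untreated, a value whose sign turned when libraries were scaled by total counts, and 0.20 (0.13 to 0.27) with butyrate. The log2 ratio of *Creb3l4* to *Creb3l1* was lower with butyrate, a change of −0.39 (−0.59 to −0.19) at 48 h and −0.51 (−0.73 to −0.29) at 72 h, and *Creb3l1* made up 81.6% to 88.1% of the summed level of the pair per kb.

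*Sox4* (ENSMUSG00000076431, chr13:28948919-28953713) encodes an HMG-box factor of crypt progenitors that takes part in enteroendocrine and tuft cell differentiation. The 48 h libraries held 9238 (untreated) and 10717 (butyrate) *Sox4* counts, and the 72 h libraries 7087 and 9343. The untreated library at 72 h stood below the other 3 after normalisation. Its change with butyrate was 0.04 (48 h; 0.00 to 0.08) and 0.53 (72 h; 0.48 to 0.57), 1.44-fold, and the 2 effects differed by 0.49 (0.43 to 0.55). Over time it was −0.43 (−0.48 to −0.39) without and 0.05 (0.01 to 0.09) with butyrate. *Sox4* overlaps the opposite-strand gene *Gm26735* over 2753 bases, so the same limit on strand applies as for *Gfi1*.

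**Figure D3:**
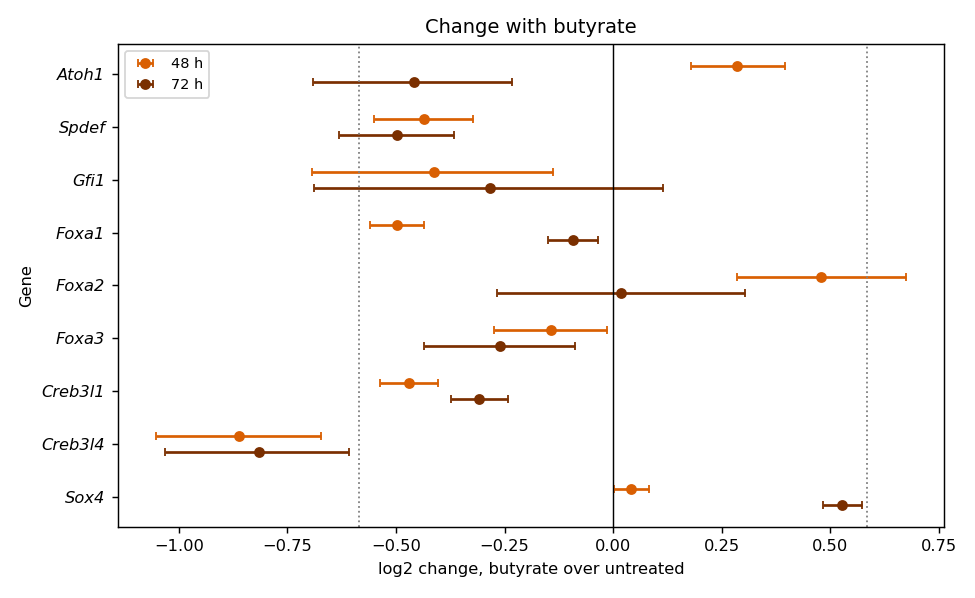
Log2 change of butyrate over untreated (normalised count plus 1) at 48 h and 72 h for the 9 members. Points are single pairs of libraries, bars are exact 95% counting intervals, and dotted lines mark 1.5-fold. *Creb3l4* lies beyond the lower dotted line at both times, and *Atoh1* lies to the right of 0 at 48 h and to its left at 72 h.

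As a group, 0 of the 9 members were at least 1.5-fold higher with butyrate at 48 h, where 8.94% of tested genes were, and 1 (*Creb3l4*) was at least 1.5-fold lower, where 6.42% were. At 72 h the counts were again 0 higher (5.87% of tested genes) and 1 lower (*Creb3l4*; 5.13%). The members' median change was −0.41 (48 h) and −0.28 (72 h), beside −0.03 and 0.00 for all tested genes. Without regard to size, *Spdef*, *Gfi1*, *Foxa1*, *Foxa3*, *Creb3l1* and *Creb3l4* were lower with butyrate at both times, 6 of 9 members, beside 32.7% of all tested genes. Past 1.5-fold, the members' count of 0 or 1 in each direction was thus near the background.

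Over time, more members were past the threshold. Without butyrate, *Atoh1*, *Gfi1*, *Foxa2* and *Foxa3* were at least 1.5-fold lower at 72 h, 4 of 9, beside 3.31% of tested genes, and 0 members were 1.5-fold higher (3.08%). With butyrate, *Atoh1*, *Gfi1*, *Foxa2* and *Foxa3* were again the 4 members past 1.5-fold lower (8.45%), and 0 were higher (6.61%). The members' median change over time was −0.43 untreated and −0.31 with butyrate, beside 0.00 and −0.01 for all tested genes. *Spdef*, *Foxa1*, *Creb3l1*, *Creb3l4* and *Sox4* stayed within 1.5-fold over time in both arms.

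**Figure D4:**
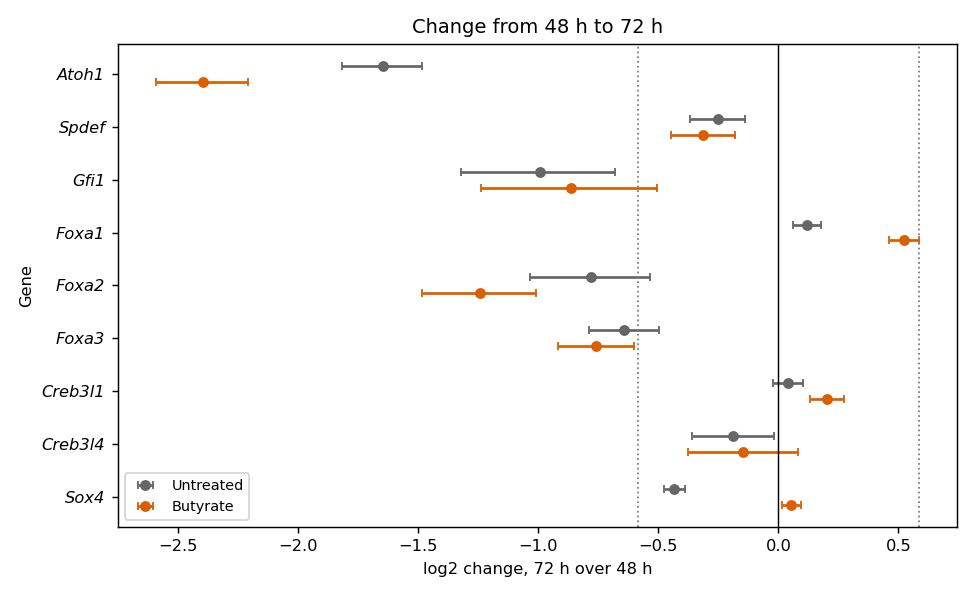
Log2 change from 48 h to 72 h (normalised count plus 1) without and with butyrate for the 9 members. Points are single pairs of libraries, bars are exact 95% counting intervals, and dotted lines mark 1.5-fold. *Atoh1*, *Gfi1*, *Foxa2* and *Foxa3* lie beyond the lower line in both arms, and *Sox4* lies left of 0 without and right of 0 with butyrate.

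Likeness of pattern was measured as the Euclidean distance between centred log2 profiles over the 4 libraries, which lists genes that resemble a member in 4 points only. Nearest to *Atoh1* were *Zswim3* (distance 0.234), *Mamdc4* (0.633), *Itln1* (0.704), *Rgcc* (0.771) and *Kbtbd8* (0.775). *Itln1*, which encodes the lectin intelectin, had counts of 3832, 3724, 1745 and 722 in the order untreated and butyrate at 48 h, then untreated and butyrate at 72 h. Of the other members, *Foxa2* ranked 23rd, *Gfi1* 49th and *Foxa3* 113th nearest to *Atoh1* among 11649 genes, at distances of 1.07, 1.21 and 1.36, whereas *Spdef* ranked 1540th. Seen from the other side, *Atoh1* ranked 5161st from *Foxa2*, 8802nd from *Gfi1* and 10953rd from *Foxa3*, so many genes were nearer to these members than *Atoh1* was.

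Nearest to *Spdef* were *Tsc22d1* (0.0285), *Mapk4* (0.0497), *Calml4* (0.0539), *B230307C23Rik* (0.0636) and *Nat2* (0.0658). *Spdef* ranked 172nd from *Creb3l4*, and *Creb3l4* ranked 1185th from *Spdef*. *Foxa3* ranked 28th from *Gfi1*, and *Gfi1* ranked 120th from *Foxa3*. *Foxa1* and *Creb3l1* ranked 1170th and 959th from each other, and *Sox4* had no other member nearer than rank 9199.

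The Notch genes that act on *Atoh1* were followed in a list of 7, of which 5 were tested. Past 1.5-fold with butyrate, 0 were higher and 1 was lower at 48 h, and none of the 5 was past it at 72 h. Of all tested genes, 8.94% were higher and 6.42% lower at 48 h, and 5.87% and 5.13% at 72 h. The list's medians were −0.06 and 0.18, beside −0.03 and 0.00 for all tested genes. *Hes1* had counts of 2780 and 2707 at 48 h and 1868 and 1516 at 72 h. Its normalised value thus lay lower with butyrate at both times, with log2 changes of −0.21 (−0.29 to −0.13) and −0.17 (−0.27 to −0.07). It also lay lower at 72 h, with −0.62 (−0.71 to −0.54) without and −0.58 (−0.68 to −0.49) with butyrate. *Hes1* and *Atoh1* were therefore both lower at 72 h than at 48 h in each arm, and both were lower with butyrate at 72 h. At 48 h *Hes1* was lower and *Atoh1* higher with butyrate.

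The receptor gene *Notch1* was lower with butyrate at 48 h (−0.67, −0.76 to −0.59) and higher at 72 h (0.25, 0.17 to 0.34). *Notch2* had changes of 0.19 (0.00 to 0.37) and 0.50 (0.33 to 0.67), and *Rbpj*, the DNA-binding partner of Notch, of −0.06 (−0.17 to 0.05) and 0.18 (0.06 to 0.29). *Nrarp*, a Notch target named here after its values were seen, had 0.29 (0.12 to 0.46) and −0.09 (−0.34 to 0.16) with butyrate, and −0.82 (−1.04 to −0.61) and −1.20 (−1.41 to −0.99) over time. Over time, 2 of the 5 were 1.5-fold lower and 0 higher untreated (3.31% and 3.08% of all tested genes), against 1 lower and 1 higher with butyrate (8.45% and 6.61%). The counts of lower genes differ by *Hes1*, which lay at the threshold, 1.5409-fold lower untreated and 1.4997-fold lower with butyrate.

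Genes of secretory progenitors and of entry into the enteroendocrine line formed a list of 6, all tested. With butyrate, 3 were past 1.5-fold lower at 48 h and 1 at 72 h, with 0 higher at either time. Of all tested genes, 6.42% and 5.13% were lower at these times, and 8.94% and 5.87% higher. The list's medians were −0.53 and −0.06, beside −0.03 and 0.00. *Dll1*, a Notch ligand of secretory progenitors, had counts of 298 and 131 at 48 h and 125 and 111 at 72 h. Only the untreated library at 48 h stood high, so its change with butyrate was −1.35 (48 h; −1.67 to −1.06) and −0.04 (72 h; −0.42 to 0.34). *Dll4*, another Notch ligand, showed −0.66 (−0.85 to −0.47) and −0.08 (−0.33 to 0.17).

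*Neurog3*, which starts enteroendocrine differentiation, had values of 0.10 (−0.09 to 0.29) and 0.28 (−0.02 to 0.58) with butyrate, and its change over time was −1.27 (−1.53 to −1.02) without and −1.09 (−1.34 to −0.86) with it. *Insm1*, which acts in enteroendocrine precursors, had lower values with butyrate, with changes of −1.39 (48 h; −1.69 to −1.11) and −0.50 (72 h; −0.75 to −0.27). *Hes6*, a relative of *Hes1*, had changes of −0.13 (−0.22 to −0.03) and 0.23 (0.12 to 0.35). *Neurod1*, an enteroendocrine factor that acts after *Neurog3*, was the gene past 1.5-fold lower at 72 h (−0.78, −1.09 to −0.48), beside −0.41 (−0.67 to −0.15) at 48 h, and was named after its values were seen. Over time, 3 of the 6 were past 1.5-fold lower untreated (3.31% of all tested genes), and with butyrate 1 was lower (8.45%) and 1 higher (6.61%). *Gfi1b*, the paralog of *Gfi1* found in tuft cells, had 1, 6, 1 and 0 counts, and 3 of these 4 values lie under the floor of 3 counts.

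Products of goblet cells and their secretory machinery, in a list of 10 tested genes, had no member in the direction of *Atoh1* past 1.5-fold over time in the untreated libraries. There 3 were past 1.5-fold higher at 72 h and 0 lower (3.08% and 3.31% of all tested genes; median 0.18), while *Atoh1* was 3.13-fold lower. With butyrate 0 were higher and 4 lower (6.61% and 8.45%; median −0.35). In the treatment comparison 2 were higher and 2 lower at 48 h (8.94% and 6.42% of all tested genes; median −0.24). At 72 h, 8 of the 10 were lower and 0 higher (5.13% and 5.87%; median −0.80). *Muc2*, the main mucin of the colon, had changes with butyrate of −0.49 (−0.51 to −0.47) and −0.87 (−0.88 to −0.85). *Spdef*, *Gfi1*, *Foxa1*, *Foxa3* and both *Creb3l* genes were also lower with butyrate at both times, as were 32.7% of all tested genes. *Agr2*, a disulfide isomerase needed for mucin, had −0.36 (−0.40 to −0.33) and −0.80 (−0.84 to −0.76). *Fcgbp*, a mucus protein, had 0.01 (−0.02 to 0.04) and −1.11 (−1.15 to −1.07). *Tff3*, a trefoil peptide, had 0.77 (0.71 to 0.83) and −0.65 (−0.71 to −0.58), the order of signs seen for *Atoh1*.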

How the data were processed

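The authors deposited gene-level estimated counts, made with kallisto 0.44.0 (submitters' processing notes, which also name GRCm38.p6) and summed to genes with tximport. The deposited values are whole numbers, neither normalised nor filtered, and 26 gene names had become calendar dates. From them, DESeq2 1.42.0 size factors (R 4.3.3) were computed on the 13979 genes that exceeded 10 counts in 2 or more libraries. The background was the 11650 of these whose mean normalised count reached 50. Changes are log2 ratios of normalised counts plus 1. Intervals are exact Clopper-Pearson 95% intervals on the pair of counts, and differences and ratios have Poisson intervals. Since PCR copies were not told apart by molecular identifiers, intervals and the 3-count floor express counting error alone. With 1 library per condition no p-value was computed. A gene was counted as past the threshold at 1.5-fold.

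Positions, exon lengths and overlaps came from GENCODE release M21 (GRCm38), and promoters from RefSeq. Further steps used Python 3.11.15 (scipy 1.17.1, numpy 2.4.6, matplotlib 3.10.9, pandas 2.3.3). Steps were tested on simulated data. Alternatives were TMM (edgeR 4.0.16), total counts with and without mitochondrial genes, no gene filter, a pseudocount of 5, thinning (20 draws), a threshold of 2-fold, another background filter and longest transcripts. Named genes were the 9 members, at most the 4 most abundant genes of each list, *Hes1*, *Dll1*, *Gfi1b*, and the 5 genes nearest to *Atoh1* and *Spdef*. *Nrarp*, *Neurod1* and single cell type markers were named after their values were seen. Overlapping genes were named for their position and have no value among the deposited counts. The members and lists were chosen with earlier results of these data known.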

Additional observations from a re-analysis of the deposited data

Results flagged for a closer look

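Among 23 genes, 7 had changes of opposite sign under the same contrast, with both counting intervals excluding 0. The 23 are the members, genes named from the 3 lists and *Gfi1b*, without *Nrarp* and *Neurod1*. Each sign rests on 1 pair of libraries, and the differences were not tested against replicate error. The share of all tested genes meeting the same rule was not computed, so the 7 have no background beside them. At high counts an interval can exclude 0 for a small change, as over time for *Sox4* with butyrate (0.0535) and *Agr2* without it (0.0745). *Atoh1* was higher with butyrate at 48 h (0.29) and lower at 72 h (−0.46). *Sox4* was lower at 72 h than at 48 h without butyrate (−0.43) and slightly higher with it (0.0535). *Notch1* was opposite in both views, with butyrate effects of −0.67 at 48 h and 0.25 at 72 h and changes over time of −0.33 without and 0.60 with butyrate. *Hes6* had butyrate effects of −0.13 and 0.23. *Tff3* had butyrate effects of 0.77 and −0.65 and changes over time of 0.42 without and −0.99 with butyrate. Over time, *Fcgbp* had 0.29 without and −0.83 with butyrate, and *Agr2* had 0.0745 and −0.36.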

How the results depend on the processing

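Of 216 recomputed changes of single members, 212 stayed within the counting interval and 4 moved outside it, all under scaling by total counts. These were *Sox4* with butyrate at 72 h (0.58) and, over time without butyrate, *Foxa1* (0.04), *Creb3l1* (−0.04, the only value to turn sign) and *Sox4* (−0.51), which also set the members' median there (−0.51). Across the scalings tried, all genes shifted together by at most 0.0782 on the log2 scale. Counts of members past the threshold were the same under every scaling, pseudocount, filter and thinning tried. At 2-fold, 0 members were lower with butyrate at 48 h and 0 at 72 h, 1 (*Atoh1*) over time untreated and 2 (*Atoh1*, *Foxa2*) over time with butyrate. Of all tested genes, 1.536%, 1.605%, 0.8326% and 2.506% were at least 2-fold lower in these comparisons, in the same order. Between 0.755% and 3.93% were at least 2-fold higher, beside 0 members in each comparison. With the weaker filter at 1.5-fold, the background was over 1.5 times its value at 72 h (9.50% higher, 8.53% lower) and over time without butyrate (6.82% higher, 5.17% lower), and within 1.5 times it in the other comparisons (8.90% to 13.1%). All 44 changes of within-library ratios stayed within their intervals after thinning. With longest transcripts in place of exon lengths, *Spdef* over *Atoh1* per kb was 1.25 and 0.758 at 48 h and 3.30 and 3.21 at 72 h, from 1.04, 0.632, 2.75 and 2.68, and the order of the members did not differ in any library. Of 4 neighbouring pairs not separated by counting error, 2 then were (*Spdef* and *Atoh1* untreated, *Spdef* and *Foxa3* with butyrate, at 48 h), and 1 separated pair no longer was (*Creb3l1* and *Foxa1*, untreated at 72 h). No paired analysis was possible because no condition holds more than 1 library, so replicate numbers pair nothing. A fit of treatment and time together was not run. Depth limits *Gfi1* most, and replicate error is unknown for every value.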
